A study of Mus musculus with 8 samples.

Results

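The genes described here are 10 lipogenic genes of mouse liver, Fasn, Acaca, Acacb, Scd1, Elovl6, Srebf1, Me1, Acly, Thrsp and Pnpla3, which are known targets of the transcription factors SREBP1c and ChREBP or, for Srebf1, encode the factor itself. They were taken by name as the rows of the counts table whose Ensembl identifier carries these symbols in the GRCm38 annotation, with no threshold on a measured value, although earlier results of these data were known when the genes were chosen. They are 10 of 49671 gene identifiers, and all 10 were among the 13117 genes that passed the filter on low counts. The study asked what the loss of the N-terminal domains of the Lamin B receptor, encoded by Lbr, does to the mouse, and liver RNA-seq was its test of gene expression in the animal. Lbr encodes a protein of the inner nuclear membrane that also carries sterol reductase activity. The libraries came from whole liver of C57BL/6 mice labelled post weaning, in 4 groups of 2 libraries, WT and NT-KO animals of each sex. NT-KO mice were homozygous for a CRISPR/Cas9 deletion that removes the start codon of Lbr and the end of the intron before it, in a line that goes back to 1 male founder crossed to C57BL/6N. WT mice carried the intact gene, and the labels give no treatment for any group. The labels number the replicates but do not say whether each library is a separate animal, so p-values measure only the spread between these samples. No feeding state or hour of collection is given in the sources used here.

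De novo lipogenesis turns sugar into fatty acids, and liver is one of its main sites. After a meal, insulin drives the expression and cleavage of SREBP1c, while sugar metabolites activate ChREBP, and these factors together switch on the enzymes that carry citrate to palmitate and on to monounsaturated fat. In fasting the same genes fall, so they are known as some of the most variable genes of the liver in normal life. In whole tissue, fewer cells of a type and less RNA per cell cannot be told apart.

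Total counts were between 45020377 and 64396291 per library. The levels below are CPM, the usual counts scaled to the library total, here after TMM scaling, and 1 count was worth 0.0155 to 0.0222 CPM, and the least abundant of the 10 genes, Pnpla3, still had 50 counts in its lowest library. The targeted gene Lbr was at 6.54 to 7.99 CPM in the 4 WT libraries and at 12.8 to 14.0 CPM in the 4 NT-KO libraries. A gene count includes the exons outside the deletion, so this level does not check the loss of the deleted part. Xist, the RNA of the inactive X chromosome, was at 788 to 967 CPM in the 4 female libraries and at most 3.21 CPM in the 4 male ones. The 5 hepatocyte markers Alb, Apoa1, Ttr, Cps1 and Hnf4a summed to between 67795 and 103630 CPM. The 2 libraries of each group differed by far more than sampling noise, with a chi-square per degree of freedom of 112 to 278.

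The stretch before the transcription start is shown for 4 of the genes because they mark the ends of what follows. Fasn lay closest to the mean profile of the other genes and Pnpla3 farthest from it, Srebf1 is the regulator and had the smallest range, and Thrsp had the lowest fitted change in males. Each is the 250 bases 5′ of a RefSeq start on GRCm38.p6, written 5′ to 3′ on the gene's strand. Capitals mark CCAAT, the letters bound by NF-Y, on either strand, and AGTAACCCC.
Fasn, chr11:120824548-120824797, minus strand: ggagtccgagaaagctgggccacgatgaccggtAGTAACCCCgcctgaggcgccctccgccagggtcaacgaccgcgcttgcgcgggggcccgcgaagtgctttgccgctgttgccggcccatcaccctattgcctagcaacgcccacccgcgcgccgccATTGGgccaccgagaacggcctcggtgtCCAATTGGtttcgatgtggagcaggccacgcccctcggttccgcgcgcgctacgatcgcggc
Srebf1, the start farthest downstream of 3, chr11:60210472-60210721, minus strand: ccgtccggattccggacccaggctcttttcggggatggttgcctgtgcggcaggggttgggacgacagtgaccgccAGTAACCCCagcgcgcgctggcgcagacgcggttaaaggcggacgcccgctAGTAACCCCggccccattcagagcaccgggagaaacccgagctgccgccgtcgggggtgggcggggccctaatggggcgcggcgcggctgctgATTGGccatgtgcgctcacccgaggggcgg
Thrsp, chr7:97417551-97417800, minus strand: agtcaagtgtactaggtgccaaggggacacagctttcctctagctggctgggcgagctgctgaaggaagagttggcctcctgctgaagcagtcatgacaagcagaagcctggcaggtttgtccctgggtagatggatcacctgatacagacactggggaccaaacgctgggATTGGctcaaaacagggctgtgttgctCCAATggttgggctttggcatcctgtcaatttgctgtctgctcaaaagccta
Pnpla3, chr15:84167566-84167815, plus strand: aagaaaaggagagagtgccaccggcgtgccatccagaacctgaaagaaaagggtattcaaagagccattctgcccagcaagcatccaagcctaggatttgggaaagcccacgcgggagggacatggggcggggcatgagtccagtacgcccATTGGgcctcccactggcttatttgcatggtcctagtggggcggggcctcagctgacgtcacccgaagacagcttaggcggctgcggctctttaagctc
RefSeq gave windows for 9 of the 10 genes, 12 windows in all, and none for Scd1. CCAAT was present in 7 of the 12 windows, from 6 genes (Acacb, Fasn, Me1, Pnpla3, Srebf1 and Thrsp), against 33.8% of all 32851 windows. Fasn had 3 matches, of which those at positions -62 and -59 overlap as CCAATTGG. GGGCGG, the GC box bound by Sp1, was in 5 of the 12 windows, from Acly, Me1, Pnpla3 and Srebf1, against 32.7% of all windows. The letters AGTAACCCC, picked after these sequences had been seen, stood at positions -174 and -123 of the Srebf1 window and at -217 of the Fasn window, and in 0.122% of all windows. The letters TCACNCCAC, a form of the sterol regulatory element, were in 1.05% of all windows and in none of the 12, and the E-box CACGTG was in 6.02% and in none of the 12. A paired E-box with 5 bases between (the carbohydrate response element) was in none of all windows. The liver X receptor element is a direct repeat spaced by 4 bases. The letters searched for it dropped the leading base of each repeat and kept 4 bases between the rest. They set the repeats too close and could not match the perfect element. Those letters were in 0.0457% of all windows and in none of the 12, which says nothing on the element. The element itself, perfect or imperfect, was not searched for. Whether the stretch shared by Srebf1 and Fasn is part of such an element was not tested. The search read both strands for exact letters, and sites that depart from them were not counted. With a share of 1.05% over all windows, none in 12 carries little information. A match or its absence in this window describes letters only.

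Srebf1, which encodes the SREBP1 factors (chr11:60199089-60222581), had the smallest range of the 10. It stood at 228 and 198 CPM in WT males (replicates 1 and 2, the order kept below), 261 and 469 CPM in NT-KO males, 217 and 308 CPM in WT females and 502 and 339 CPM in NT-KO females. In each sex both NT-KO libraries were above both WT libraries, which held for no other of the 10 genes in either sex. Of all tested genes, 19.6% were so in males, 12.2% in females and 1.91% in both sexes. Gene counts do not separate the SREBP1a and SREBP1c forms.

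Acly, ATP citrate lyase, makes cytosolic acetyl-CoA from citrate (chr11:100476350-100528000). Its levels were 295 and 199 CPM in WT males, 105 and 773 CPM in NT-KO males, 198 and 393 CPM in WT females and 349 and 351 CPM in NT-KO females. The lowest and the highest library were thus the 2 male NT-KO libraries, while the 2 female NT-KO libraries were almost equal. Me1, the cytosolic malic enzyme that supplies NADPH (chr9:86581371-86695953), was at 216 and 154 CPM in WT males, 107 and 659 CPM in NT-KO males, 179.8 and 399.7 CPM in WT females and 315 and 333 CPM in NT-KO females. It had the same lowest and highest library as Acly.

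Acaca and Acacb encode the acetyl-CoA carboxylases, the cytosolic form that makes malonyl-CoA for synthesis and the mitochondrial form whose malonyl-CoA restrains fatty acid import. Acaca (chr11:84129672-84401651) was at 148 and 103 CPM in WT males, 62.8 and 199 CPM in NT-KO males, 99.2 and 174 CPM in WT females and 131 and 153 CPM in NT-KO females. Acacb (chr5:114146540-114250760) was at 92.0 and 79.3 CPM in WT males, 27.5 and 209.7 CPM in NT-KO males, 112 and 172 CPM in WT females and 150.5 and 115 CPM in NT-KO females. The male NT-KO libraries were again at both ends, 3.16-fold apart for Acaca and 7.63-fold apart for Acacb. The ratio of Acaca to Acacb, per kilobase of exon, was 1.29 in male NT-KO replicate 1 and between 0.493 and 0.907 in the other 7 libraries.

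Fasn, fatty acid synthase, joins malonyl-CoA units into palmitate (chr11:120805850-120824550). It was at 427 and 391 CPM in WT males, 223 and 1489 CPM in NT-KO males, 485 and 1069.8 CPM in WT females and 1469 and 861 CPM in NT-KO females. Male NT-KO replicate 2 and female NT-KO replicate 1 were nearly level at the top. Elovl6, which lengthens palmitate to stearate (chr3:129532360-129638500), was at 236 and 197 CPM in WT males, 69.0 and 639.7 CPM in NT-KO males, 151 and 402 CPM in WT females and 329 and 268 CPM in NT-KO females. Scd1, the main liver stearoyl-CoA desaturase (chr19:44394455-44407879), was at 3964 and 4758 CPM in WT males, 1877 and 15238 CPM in NT-KO males, 3345 and 8252 CPM in WT females and 4294 and 7059 CPM in NT-KO females. For both genes the 2 male NT-KO libraries were the lowest and the highest of the 8, 9.28-fold apart for Elovl6 and 8.12-fold apart for Scd1.

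Thrsp, also called Spot 14, is a nuclear protein that promotes lipogenesis and answers to thyroid hormone and carbohydrate (chr7:97412938-97417730). It was at 1295 and 1198 CPM in WT males, 325 and 1997 CPM in NT-KO males, 1002 and 1222 CPM in WT females and 2113 and 1175 CPM in NT-KO females. Of the 8 libraries, 5 lay between 1002 and 1295 CPM, with male NT-KO replicate 1 far below them. Pnpla3, a lipid droplet protein with lipase activity (chr15:84167837-84187236), was at 2.81 and 4.06 CPM in WT males, 1.02 and 20.7 CPM in NT-KO males, 7.96 and 41.8 CPM in WT females and 102 and 13.1 CPM in NT-KO females. It had the widest range of the 10, 99.8-fold between male NT-KO replicate 1 and female NT-KO replicate 1, and the replicates of a group were 1.45 to 20.3-fold apart. Replicates of the other 9 genes were at most 9.28-fold apart in any group.

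**Figure D1:**
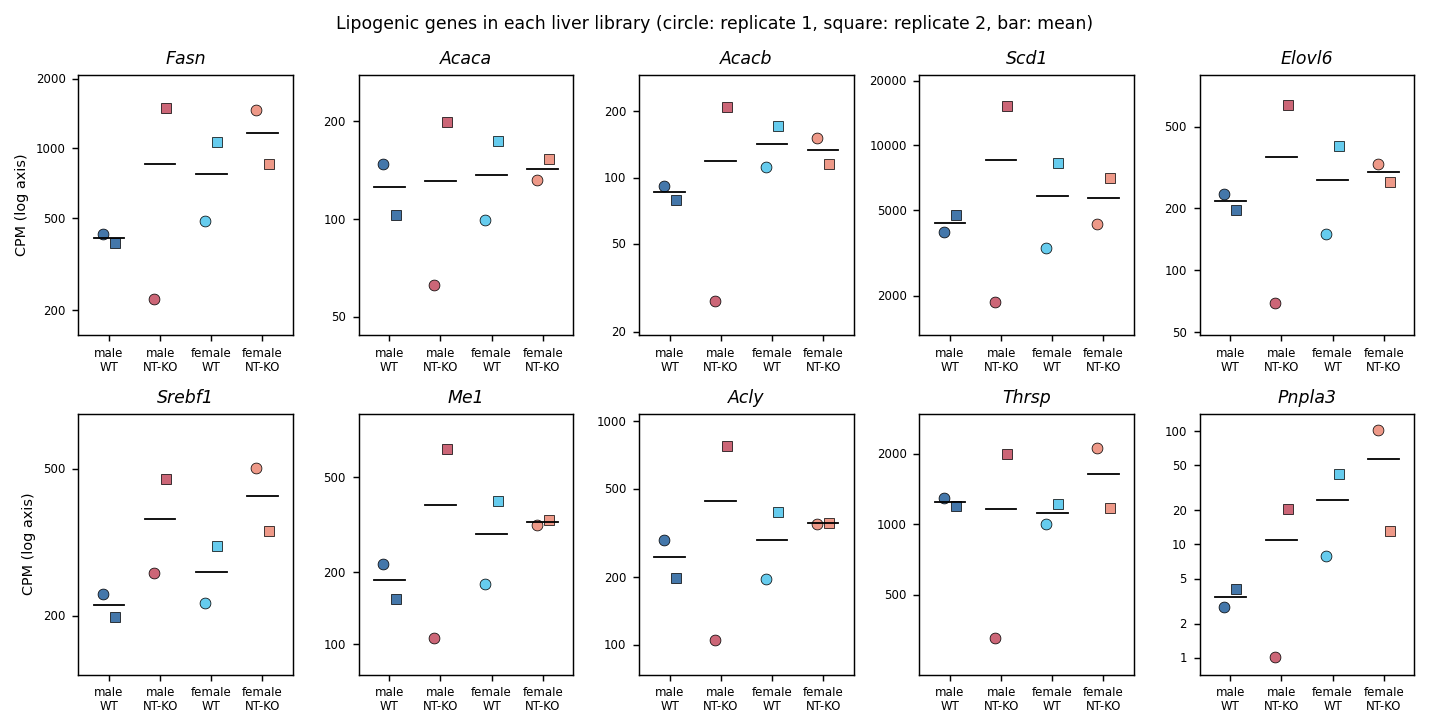
CPM of each lipogenic gene (log axis) in the 4 groups; circles are replicate 1, squares replicate 2 and bars the group mean. The 2 male NT-KO libraries are the lowest and the highest of the 8 in 7 panels, and Srebf1 alone has both NT-KO points above both WT points in each sex.

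The first comparison asked whether the Lbr deletion moved these genes in males. The fitted log2 fold change of NT-KO over WT was above 0 for 9 genes and below 0 for Thrsp, with a median of 0.80 against 0.01 over all tested genes. None of the 10 passed the thresholds of the study (an FDR of 0.05 or less with a log2 fold change beyond 1 in size) by edgeR's quasi-likelihood test, where 0.0152% of all tested genes did. The likelihood ratio test called 0 of the 10 at a background of 1.56%, and DESeq2 0 of the 10 at 1.66%. Srebf1 was the only gene with an unadjusted p under 0.05, a mark that 11.5% of all tested genes met. Its mean was 213 ± 21.4 CPM (SD, n = 2) in WT males and 365 ± 147 CPM (n = 2) in NT-KO males, a fitted log2 fold change of 0.78 with a standard error of 0.33. The unadjusted p of Srebf1 was 0.0444 and its FDR was 0.423 by the same test. Of all tested genes, 19.6% had both male NT-KO libraries above both WT libraries, and Srebf1 was 1 of 10 here.

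The other 9 genes had wide errors. The log2 fold change in males was 1.06 ± 0.75 (standard error) for Fasn, 1.05 ± 0.71 for Me1, 0.97 ± 0.81 for Scd1, 0.83 ± 0.74 for Acly and 0.71 ± 0.83 for Elovl6. It was 0.47 ± 0.71 for Acacb and 0.06 ± 0.49 for Acaca. Pnpla3 had the largest value, 1.67 ± 1.35, and Thrsp the lowest, -0.10 ± 0.67. The 95% confidence intervals of these 9 genes all included 0, that of Fasn from -0.65 to 2.78 and that of Pnpla3 from -1.42 to 4.76. For Acaca, Acacb, Elovl6 and Thrsp the standard error was larger than the change itself.

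The direction in males rested on 1 library. Without male NT-KO replicate 2 the median of the 10 genes was -1.23 and 9 of them were below 0, Srebf1 being the exception. Without male NT-KO replicate 1 the median was 1.60 and all 10 were above 0. Srebf1 went from 0.78 to 0.29 without replicate 2 and to 1.14 without replicate 1. None of the 10 passed the thresholds in either fit, where male NT-KO was 1 library and was assumed to vary like the other groups. With the replicate number as a block the median in males was 0.27. With no filter beyond 1 count, which let in 29724 genes, Fasn, Me1 and Pnpla3 passed in males at a background of 2.24%.

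In females the fitted changes were smaller, with a median log2 fold change of 0.20 against 0.00 over all tested genes, 8 genes above 0 and 2 below. The quasi-likelihood test called 0 of the 10 (0.00762% of all tested genes), the likelihood ratio test 0 (0.0839%) and DESeq2 0 (0.0381%), and 0 of the 10 had an unadjusted p under 0.05 (1.55%). Srebf1 was at 263 ± 64.7 CPM (SD, n = 2) in WT females and 420 ± 115 CPM (n = 2) in NT-KO females, a log2 fold change of 0.68 ± 0.33 (standard error) with an unadjusted p of 0.0707 and an FDR of 1 by the quasi-likelihood test. Its female NT-KO libraries were both above the WT ones, as in 12.2% of all tested genes. Over both sexes together, 1.91% of all tested genes had every NT-KO library above the WT libraries of its sex.

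The other 9 genes overlapped between the genotypes in females. Pnpla3 had a log2 fold change of 1.20 ± 1.28 (standard error), Fasn of 0.58 ± 0.74 and Thrsp of 0.56 ± 0.67. The values of Acly, Me1, Elovl6 and Acaca lay between 0.06 and 0.25, and those of Scd1 and Acacb were -0.03 and -0.10. Leaving out female WT replicate 1 moved the median to -0.23, and leaving out female WT replicate 2 moved it to 0.84. With no filter beyond 1 count, Pnpla3 passed the thresholds in females, at a background of 0.579%.

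**Figure D2:**
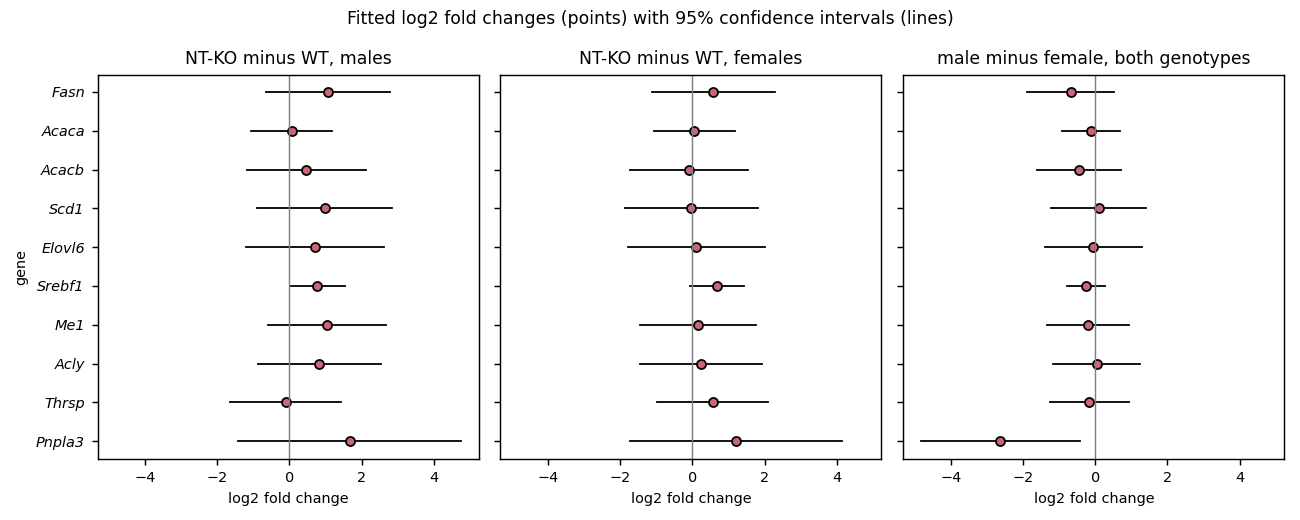
Fitted log2 fold changes (points) of the 10 genes with 95% confidence intervals (lines) for NT-KO minus WT in males, NT-KO minus WT in females, and male minus female over both genotypes. Of the 30 intervals, those of Srebf1 in males (0.02 to 1.53) and Pnpla3 between the sexes (-4.84 to -0.42) do not reach 0, and neither gene passed the FDR.

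Whether the deletion acted differently in the 2 sexes was tested as the male minus the female log2 fold change. The difference ran from -0.67 ± 0.95 (standard error) for Thrsp to 1.00 ± 1.14 for Scd1, with a median of 0.52 over the 10 genes. It was 0.10 ± 0.46 for Srebf1, with a 95% confidence interval from -0.96 to 1.15. The quasi-likelihood test called 0 of the 10, with 0.0152% of all tested genes called, and 0 had an unadjusted p under 0.05 (7.2%). The likelihood ratio test and DESeq2 called 0 of the 10 as well, at 0.351% and 0.473%. This median turned below 0 without either of 2 libraries, to -1.48 without male NT-KO replicate 2 and to -0.19 without female WT replicate 2. It was 1.39 without male NT-KO replicate 1 and -0.12 with the replicate number as a block.

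Between the sexes over both genotypes, Pnpla3 had the largest fitted change of the 10 genes. Its 4 male libraries were at 1.02 to 20.7 CPM and its 4 female libraries at 7.96 to 102 CPM, so the sexes overlapped through male NT-KO replicate 2. The log2 fold change of male over female was -2.63 ± 0.96 (standard error). By the quasi-likelihood test its unadjusted p was 0.025 and its FDR 0.129, where 26.9% of all tested genes had a p under 0.05. The likelihood ratio test gave Pnpla3 an FDR of 0.0289 and DESeq2 an FDR of 0.1. So 1 of the 10 genes was called by the likelihood ratio test and 0 by the other methods, where 5.17%, 4.19% (quasi-likelihood) and 5% (DESeq2) of all tested genes were called. With no filter beyond 1 count the quasi-likelihood test also called Pnpla3, at 4.18%.

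The other 9 genes did not pass between the sexes, with Fasn at -0.68 ± 0.52 and Scd1 at 0.09 ± 0.57, and the median of the 10 was -0.19. This median was -1.11 without male NT-KO replicate 2, with all 10 lower in males, 0.18 without male NT-KO replicate 1, with 6 higher, and 0.01 without female WT replicate 2, with 5 higher. Pnpla3 alone had an unadjusted p under 0.05, against 26.9% of all tested genes. None of the 10 had male and female libraries that did not overlap, while 7.6% of all tested genes were higher and 8.5% lower in all males. Without male NT-KO replicate 2 the fit called 3 of the 10, all lower in males, Fasn with a log2 fold change of -1.66 (FDR 0.0359), Acacb of -1.50 (FDR 0.00829) and Thrsp of -1.09 (FDR 0.0452), at a background of 3.99%.

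Libraries of the same group lay far apart in these genes. The SD within groups, pooled over the 4 groups on the log2 scale, had a median of 1.08 over the 10 genes and 0.22 over all tested genes. Pnpla3 had the largest SD, 2.04, at the 99.7th percentile of all tested genes. Elovl6 was at 1.25, Scd1 at 1.19, Acly at 1.10, Fasn at 1.08, Acacb at 1.07, Me1 at 1.03 and Thrsp at 0.98. Acaca followed at 0.68, and Srebf1 was the steadiest at 0.41, still at the 85.4th percentile.

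The gap was not alike in the 4 groups. In male WT the 2 replicates differed by a median of 0.26 log2 units over the 10 genes, near the 0.22 of all tested genes. In male NT-KO the median was 2.81 against 0.29, in WT females 1.07 against 0.19 and in NT-KO females 0.47 against 0.23. In male NT-KO 9 of the 10 genes were more than 1 log2 unit apart, which 5.91% of all tested genes were, and Srebf1 at 0.84 was the exception.

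**Figure D3:**
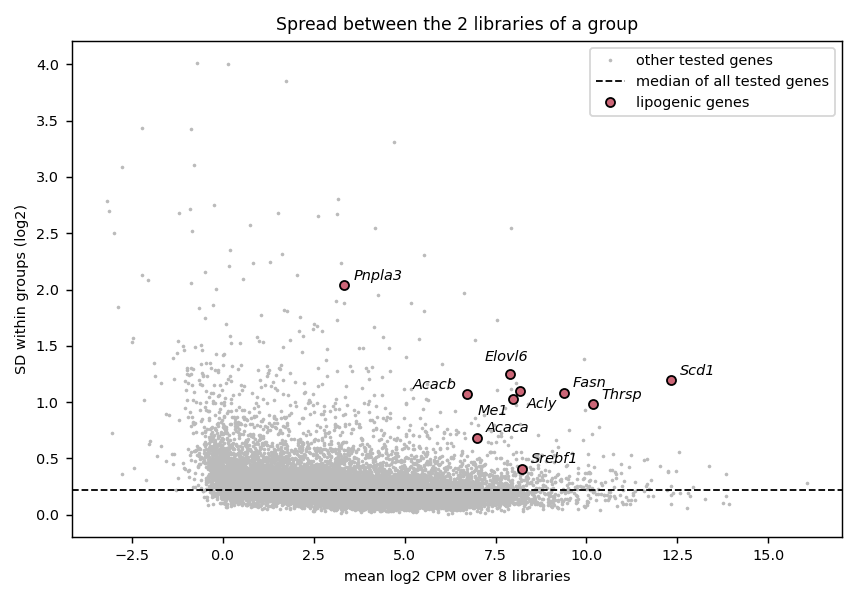
SD within groups (log2) against the mean log2 CPM over 8 libraries for all 13117 tested genes (grey) and the 10 lipogenic genes (red); the dashed line is the median of all tested genes, 0.22. The lipogenic genes lie above the line at every level, from Srebf1 at 0.41 to Pnpla3 at 2.04.

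The libraries at the ends were the same for most of the genes. Male NT-KO replicate 1 was the lowest of the 8 libraries for 9 of the 10 genes, all but Srebf1, while it was the lowest for 12.1% of all tested genes. Male NT-KO replicate 2 was the highest for 7 of the 10, against 12.5% of all tested genes, and female NT-KO replicate 1 was the highest for Srebf1, Thrsp and Pnpla3. Both held at once, replicate 1 lowest and replicate 2 highest in NT-KO males, for Fasn, Acaca, Acacb, Scd1, Elovl6, Me1 and Acly, and for 2.33% of all tested genes. Together the 10 genes took 0.297% of all counts in male NT-KO replicate 1 and 2.14% in male NT-KO replicate 2. In the other 6 libraries they took 0.61% to 1.31%, from female WT replicate 1 to female WT replicate 2.

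On the log2 scale, centred on each gene's own mean, the median of the 10 genes was -1.51 in male NT-KO replicate 1 and 1.10 in male NT-KO replicate 2. It was -0.21 and -0.46 in WT males, -0.45 and 0.67 in WT females, and 0.49 and 0.28 in NT-KO females. Every one of the 10 was below its own mean in male NT-KO replicate 1, and 0 were in male NT-KO replicate 2, female WT replicate 2 and female NT-KO replicate 2. Fasn kept closest to the mean profile of the other 9, with a root mean square difference of 0.23 log2 units over the 8 libraries, and Me1 and Elovl6 were at 0.26. Srebf1 was at 0.62 and Pnpla3 at 1.49. These points share their libraries and scaling, so the likeness is a description.

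**Figure D4:**
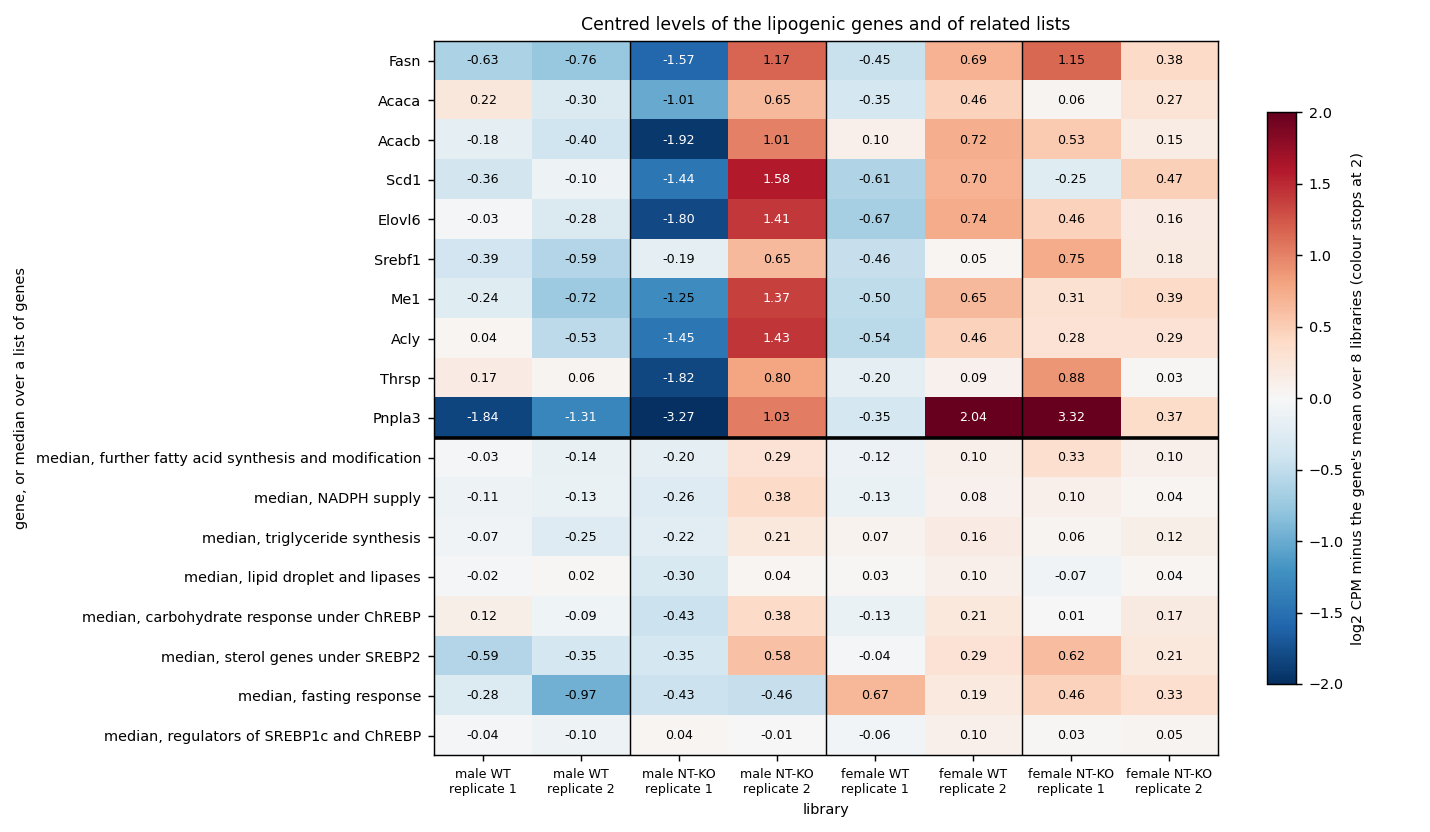
Log2 CPM minus the gene's mean over the 8 libraries for the 10 lipogenic genes (upper rows) and the median of the same quantity over related gene lists (lower rows), one column per library. The upper rows run from blue in male NT-KO replicate 1 to red in male NT-KO replicate 2, while the median of the regulators stays between -0.10 and 0.10.

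Compared per kilobase of exon, levels ran from Scd1 at the top to Acaca at the bottom. The mean over the 8 libraries was 1247 ± 861 CPM per kilobase (SD, n = 8) for Scd1 and 589.8 ± 257 for Thrsp. Me1 at 76.8 ± 46.0, Fasn at 73.3 ± 45.5, Acly at 63.1 ± 38.4, Srebf1 at 56.0 ± 20.4 and Elovl6 at 44.5 ± 27.4 CPM per kilobase formed a middle group in which each mean lay within the SD of its neighbour. Pnpla3 had 15.6 ± 22.0, Acacb 12.4 ± 5.92 and Acaca 7.83 ± 2.58 CPM per kilobase, and Pnpla3 was above Acacb in 2 of 8 libraries. With the longest transcript as the length, Acaca and Acacb changed places.

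Within a library the genes kept unequal proportions. The ratio of Scd1 to Fasn, per kilobase, was 6.54 in female NT-KO replicate 1 and 15.4 to 27.2 in the other 7 libraries. Fasn per Srebf1 was 0.44 in male NT-KO replicate 1 and 0.963 to 1.79 in the other 7. Thrsp per Fasn was 15.2 and 15.3 in WT males, and 5.71 to 10.3 in the other 6 libraries.

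The genes of the factors that act on these 10 had a median change near 0, with members on both sides of it. Over the list of 18 regulators of SREBP1c and ChREBP, the quasi-likelihood test called 0 in males and in females. In that test 2 and 1 had an unadjusted p under 0.05, against 11.5% and 1.55% of all tested genes. The median log2 fold changes of the 18 regulators were 0.08 and 0.05. In males 11 of them were above 0 and 7 below, and in females 10 and 8. Irs2, an insulin receptor substrate gene named after its values had been seen, had the widest range of the list, from 5.88 to 20.8 CPM (3.54-fold). Mlxipl, which encodes ChREBP, was between 369 and 551 CPM in the 8 libraries, with 502 and 411 CPM in NT-KO males, and a log2 fold change of 0.09 ± 0.24 (standard error) in males and -0.08 ± 0.24 in females. Nr1h3, the liver X receptor alpha gene, was between 84.8 and 104 CPM. Scap, the escort of SREBPs to the Golgi, was at 66.9 and 61.2 CPM in WT males and 82.7 and 79.2 CPM in NT-KO males, with an unadjusted p of 0.0417 and an FDR of 0.417.

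Insig1 and Insig2 hold the SREBP complex in the endoplasmic reticulum. Insig1, itself a target of SREBPs, was at 202 and 274 CPM in WT males, 337 and 399 CPM in NT-KO males, 309 and 387 CPM in WT females and 544 and 377 CPM in NT-KO females. Its log2 fold change was 0.63 ± 0.25 (standard error) in males, with an FDR of 0.402, and 0.40 ± 0.25 in females. Insig2 had -0.15 ± 0.17 in males and 0.44 ± 0.17 in females, where its unadjusted p was 0.032 and its FDR 1.

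Among 21 further genes of fatty acid synthesis and modification, 19 were tested and 0 passed in males or females. By the quasi-likelihood test 4 and 0 had an unadjusted p under 0.05, against 11.5% and 1.55% of all tested genes. Acss2, which makes acetyl-CoA from acetate, repeated the high value of male NT-KO replicate 2 with 641 CPM, against 124.9 CPM in replicate 1 and 109 to 332 CPM in the other 6 libraries, and its log2 fold change in males was 1.73 ± 0.67 (standard error; FDR 0.385). Elovl5, an elongase of polyunsaturated fatty acids, was at 407 CPM in male NT-KO replicate 2, at 134 to 136 CPM in the other 3 male libraries and at 361 to 431 CPM in females. Fads3, of the desaturase cluster, had a log2 fold change of 1.10 ± 0.29 in males, with an FDR of 0.246 by the quasi-likelihood test, 0.0399 by the likelihood ratio test and 0.0182 by DESeq2. With no filter beyond 1 count, Acss2 (FDR 6.2e-10), Elovl5 (FDR 0.00226) and Fads3 (FDR 0.000178) passed in males, at the background of 2.24%. That setting called 667 genes in males, against 2 with the filter. The fitted change of Acss2 was 1.72 there and 1.73 with the filter, so its FDR moved without its effect. Between the sexes 2 of the 19, Elovl3 and Fads3, passed by the quasi-likelihood test, where 4.19% of all tested genes did. Elovl3, an elongase known to be higher in male liver, was at 19.7 to 40.8 CPM in males and 2.51 to 3.06 CPM in females, a log2 fold change of 3.55 ± 0.24 (FDR 9.65e-05). Fads3 was lower in males, with a log2 fold change of -1.32 ± 0.20 (FDR 0.00751).

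Triglyceride synthesis and storage were tested over 16 and 17 genes, and 0 passed for the genotype in either sex by the quasi-likelihood test. In males 2 and 6 of them had an unadjusted p under 0.05 in that test, against 11.5% of all tested genes. In females 0 and 1 did, against 1.55%. Lpin2, a phosphatidate phosphatase, was at 193 and 177 CPM in WT males and 332 and 285 CPM in NT-KO males (log2 fold change 0.74 ± 0.22, FDR 0.293), and Acsl3, an acyl-CoA synthetase, had 0.61 ± 0.21 (FDR 0.344). Fitm1, which helps lipid droplets form, had a log2 fold change of 1.13 ± 0.31 in males. Its FDR was 0.26 by the quasi-likelihood test, 0.0498 by the likelihood ratio test and 0.0238 by DESeq2. With no filter beyond 1 count, where 2.24% of all genes passed, it was 0.000204. The droplet proteins Cidec and Plin4 and the lipase cofactor Abhd5 had log2 fold changes of -0.70 ± 0.20, -0.68 ± 0.28 and -0.92 ± 0.28 in males (FDR 0.276, 0.406 and 0.297). Plin4 was at -0.75 ± 0.27 in females. Between the sexes Gpat3, a glycerol phosphate acyltransferase, was lower in males with a log2 fold change of -2.24 ± 0.31 (FDR 0.00423). Tm6sf2, a gene of lipoprotein loading, was lower with -1.27 ± 0.16 (FDR 0.00292). They were 1 of the 16 and 1 of the 17, where 4.19% of all tested genes passed.

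Of 12 genes of the carbohydrate response, 0 passed in males or females by the quasi-likelihood test. In that test 2 and 0 had an unadjusted p under 0.05, against 11.5% and 1.55% of all tested genes. Pklr, liver pyruvate kinase and a classic ChREBP target, was at 405 and 251 CPM in WT males, 95.9 and 531 CPM in NT-KO males, 162 and 330 CPM in WT females and 309 and 313 CPM in NT-KO females, so its lowest and highest libraries were those of Fasn. Arrdc4, an arrestin induced by glucose, was lower in males than in females by a log2 fold change of -1.09 ± 0.18 (standard error, FDR 0.00916). It was 1 of the 12 to pass between the sexes, where 4.19% of all tested genes did. Of the NADPH supply, 9 genes were tested and 0 passed in any of the 4 comparisons. In the 3 that involve genotype, 0 had an unadjusted p under 0.05 by the quasi-likelihood test. Between the sexes 1 did, against 26.9% of all tested genes.

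The sterol genes under SREBP2, a relative of SREBP1 that drives cholesterol synthesis, had fitted log2 fold changes above 0 for 11 of 11 in males and 11 of 11 in females, with medians of 0.76 and 0.23. The quasi-likelihood test called 0 of them in each sex. In that test 3 and 0 had an unadjusted p under 0.05, against 11.5% and 1.55% of all tested genes. Fdft1, squalene synthase, was at 69.6 and 70.9 CPM in WT males and 112 and 165 CPM in NT-KO males (log2 fold change 0.98 ± 0.22, FDR 0.21). Hmgcs1, which makes HMG-CoA, had 1.48 ± 0.47 (FDR 0.31 and 0.0134 by DESeq2). With no filter beyond 1 count, where 2.24% of all genes passed in males, its FDR was 1.23e-07. The centred median of this list was -0.59 and -0.35 in WT males and -0.35 and 0.58 in NT-KO males, so male NT-KO replicate 1 was level with WT replicate 2 and replicate 2 lay above the other 3. The WT females had -0.04 and 0.29, and NT-KO females had 0.62 and 0.21.

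Other readouts also differed between libraries or groups, and their part in the values above was not tested. The fasting response, a list of 12 genes, had 0 called by genotype in each sex, with 4 and 0 at an unadjusted p under 0.05 (11.5% and 1.55% of all tested genes), and a median log2 fold change of 0.43 in males and -0.23 in females. Between the sexes 5 of the 12 passed, all lower in males, where 4.19% of all tested genes passed. Its centred median was -0.43 and -0.46 in male NT-KO replicates 1 and 2, and its centred mean was -0.40 and -0.79. The centred median of the fasting list was -0.28 and -0.97 in WT males. In WT females it was 0.67 and 0.19, and in NT-KO females 0.46 and 0.33. The clock balance, taken as the mean log2 CPM of Dbp, Per3 and Nr1d1 minus that of Arntl, was 2.47 and 2.88 in WT males, 4.68 and 5.06 in NT-KO males and 4.87 to 6.82 in the 4 female libraries. Over the 14 clock genes, of which 13 were tested, 0 passed by genotype and 1 between the sexes, where 4.19% of all tested genes did. By the quasi-likelihood test 7 had an unadjusted p under 0.05 in males, 4 higher and 3 lower in NT-KO. In females 0 did. The shares of all tested genes were 11.5% in males and 1.55% in females.

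Fat cells also express most of the 10 genes. Of 8 adipocyte markers, Adipoq, Lep, Plin1, Cfd, Retn and Cidea were too low to be tested, with at most 0.878 CPM in any library, and the 8 summed to 15.1 to 22.0 CPM in NT-KO males, 8.86 to 10.7 CPM in WT males, 8.52 to 11.05 CPM in NT-KO females and 12.2 to 17.6 CPM in WT females. In NT-KO males the sum was 22.0 CPM in replicate 1 and 15.1 CPM in replicate 2. The part of fat cells in the lipogenic levels was not tested. The hepatocyte markers summed to 77525 and 92541 CPM in NT-KO males. The 6 Kupffer cell markers summed to 165 to 222 CPM in NT-KO males and 124 to 199 CPM in WT males, the 6 cholangiocyte markers to 26.9 to 33.1 CPM and 41.1 to 49.3 CPM, and the 6 blood markers to 371 to 373 CPM and 445 to 948 CPM. In females the same sums in NT-KO and WT were 235 to 279 and 244 to 251 CPM, 34.7 to 60.3 and 42.0 to 50.3 CPM, and 171 to 321 and 180 to 185 CPM. Cldn4 of the cholangiocyte list and Slc4a1 of the blood list were also too low to be tested, and no marker was at 0 in all 8 libraries.

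The 5 genes outside the 10 whose centred profile lay nearest to the mean of the 10 were P2ry4, Gm7329, Slc2a4, Acot11 and Col15a1, with root mean square differences of 0.27 to 0.36 log2 units over the 8 libraries, where the median of all other tested genes was 0.86. P2ry4, a nucleotide receptor gene, was at 0.854 to 4.36 CPM, and Slc2a4, the insulin-responsive glucose transporter GLUT4, at 0.631 to 6.98 CPM. Acot11, an acyl-CoA thioesterase gene, was the most abundant of the 5 at 5.41 to 34.1 CPM. Gm7329, at 1.67 to 7.09 CPM, shares 50-base stretches with Me1, and the sources used here do not say how reads that fit both genes were counted.

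Shared sequence can split reads for a few of the 10. Of the 50-base stretches in the transcripts of Acaca, 30.4% also occur in other annotated genes (Gm5182 and Gm42553 lead), and of those of Me1 28.3% do (Gm7049, Gm48795 and Gm7329). The shares were 4.56% for Scd1 (Scd3, Scd2 and Scd4), 3.98% for Elovl6, 5.14% for Pnpla3, 1.33% for Srebf1 and 0.421% for Thrsp, and 0% for Fasn, Acacb and Acly. Scd3, named after its values had been seen, was at 0.264 CPM in male NT-KO replicate 1 and 18.4 CPM in replicate 2, far under the 1877 and 15238 CPM of Scd1. Exons of Pnpla3 overlap another gene on the same strand over 6.78% of their bases, and those of Srebf1 overlap Mir6922 and, on the opposite strand, Rai1 over 3.11% in all.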

How the data were processed

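Liver RNA of WT and NT-KO mice, 2 libraries per genotype and sex, was extracted by the authors with Trizol and made into libraries with the Illumina TruSeq RNA kit. Per the labels and methods, the authors trimmed reads with cutadapt, aligned them with STAR 2.6.1a to GRCm38 and counted reads per Ensembl gene with featureCounts, and the deposited values are unnormalized counts. The strand setting and the treatment of multi-mapped reads are not given in the sources used here.

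From the counts, CPM (prior count 2 for log2 values) and all tests were derived in R 4.3.3 (edgeR 4.0.16, limma 3.58.1, DESeq2 1.42.0). Of 49671 identifiers, 49412 matched the GENCODE annotation of GRCm38 and 259 did not. A gene was kept with 1 CPM or more in 2 or more libraries, apart from mitochondrial, miRNA and rRNA genes (13117 genes, 91.8% to 92.9% of all counts). Libraries were scaled by TMM. The model had 1 mean per group over the 8 libraries and no replicate block, and was tested by edgeR's quasi-likelihood F-test, two-sided, with Benjamini-Hochberg FDR over all tested genes. The study's own likelihood ratio test and DESeq2 were alternatives, as were RLE factors, library size only, 2 other filters, a replicate block, fits on 4 libraries and each library left out. A standard error is the size of the log2 fold change over the square root of F. An exact permutation test of 2 against 2 libraries cannot go below p = 0.333, so none was run. The tests were first tried on simulated counts.

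The 10 genes and the further lists were chosen with earlier results of these data known. The text names all 10, the regulators Mlxipl, Scap, Insig1, Insig2 and Nr1h3, Pklr, at most 4 genes per further list and comparison (past the FDR, or else by smallest unadjusted p), the label check genes and the 5 nearest profiles, apart from some genes that are not reported here. Tf of the hepatocyte list had no match under that symbol, which left 5 of 6. Lengths are the union of exons. Promoters are RefSeq windows on GRCm38.p6.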

Additional observations from a re-analysis of the deposited data

How the results depend on the processing

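With 2 libraries per group, the number of the 10 genes past the thresholds was 0 in males and in females under 7 of the 8 other settings, and 3 and 1 with no filter beyond 1 count. Between the sexes it was 1 by the likelihood ratio test and 1 with no filter. Over all tested genes the calls in males went from 2 to 205 by the likelihood ratio test, 218 by DESeq2, 667 with no filter and 6 with filterByExpr, in females from 1 to 11, 5, 172 and 1, and for the difference between the sexes from 2 to 46, 62, 552 and 2. They were 3 in males with library size only, and 0 in each sex when the 4 libraries of that sex were fitted alone. The cause was not tested.

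The series design calls WT and KO samples matched without saying by what. Deviations of same-numbered libraries correlated at -0.007 between WT and NT-KO males, 0.023 between WT and NT-KO females, and -0.181 to 0.209 over the 6 pairs of groups, so the numbers were not taken as pairs. With the replicate block the median log2 fold change was 0.27 in males, 0.30 in females, -0.12 for the difference and -0.25 between the sexes, 0 of the 10 passed, and over all tested genes 3, 0, 2 and 537 did. The block turned Acaca (-0.14), Acacb (-0.16) and Elovl6 (-0.04) in males, Scd1 in females (0.07) and Scd1 between the sexes (-0.01). With library size only, Scd1 between the sexes was -0.03 and Pklr in males 0.02. In the 4 WT libraries alone, the sex values of Scd1 and Thrsp were -0.41 and 0.17.

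Leaving out 1 library at a time moved the median in males from -1.23 to 1.60, that of the difference from -1.48 to 1.39 and that between the sexes from -1.11 to 0.18. In males Fasn went from -0.88 to 1.86, Acaca from -1.0 to 0.66, Acacb from -1.64 to 1.29, Scd1 from -1.22 to 1.81, Elovl6 from -1.65 to 1.56, Me1 from -0.80 to 1.83, Acly from -1.24 to 1.64, Thrsp from -1.94 to 0.68 and Pnpla3 from -1.75 to 2.6, with both ends set by the male NT-KO libraries. Of the other genes in males, Mlxipl went from -0.06 to 0.22, Insig2 from -0.32 to 0.03 and Pklr from -1.78 to 0.70. In females Acaca went from -0.29 to 0.52, Acacb from -0.37 to 0.25, Scd1 from -0.54 to 0.76, Elovl6 from -0.43 to 0.99, Me1 from -0.30 to 0.85, Acly from -0.17 to 0.82, Pnpla3 from -0.93 to 2.85, Mlxipl from -0.39 to 0.18 and Pklr from -0.09 to 0.94. The difference between the sexes went from -1.20 to 1.84 for Scd1, -0.40 to 0.46 for Srebf1 and -2.52 to 0.12 for Thrsp, and the male minus female value from -1.0 to 0.51 for Scd1 and -1.09 to 0.22 for Thrsp. Srebf1 stayed above 0 in these fits, from 0.29 to 1.14 in males and from 0.37 to 0.95 in females.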
